A study of Anas platyrhynchos with 3 samples.

Results

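The skin that covers the bill of Pekin duck embryos carried transcripts of cyclins, cyclin-dependent kinases (CDKs), replication factors, centromere proteins and mitotic checkpoint genes. These cell cycle genes were chosen by symbol and not by their measured values, though with earlier results of these data known. They numbered 80 of 14938 genes in the table. The CDK inhibitor gene CDKN1B, the mitotic kinase gene CDK1, the checkpoint gene BUB3, the replication clamp gene PCNA and the cyclin genes CCNL1 and CCNG1 had the highest levels among them. The chosen symbols were those of the cyclins A to L that end in a number, the numbered CDKs and their CDKN inhibitors, a set of CDC genes, the MCM and ORC families, the CENP, BUB, AURK and PLK genes, and PCNA, RRM1, RRM2 and TOP2A. CCNB1, CDK2, CDK4, MCM7, CDC6, AURKB, CENPA and MKI67 were not analysed here. The skin was taken from embryos at embryonic day 24 to 26, at a stage 24 to 48 hours before hatching when the inner shell membrane had been pierced, after incubation at 37 °C. The 3 biological replicates formed 1 group with no other treatment, genotype or age beside it, so genes were compared with one another inside each library and the libraries were described side by side. The labels do not say whether a replicate was a single embryo, and the spread between replicates behind every p-value may be partly technical.

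In dividing cells, D-type cyclins activate CDK4 and CDK6 in G1, cyclin E and cyclin A activate CDK2 for S phase, and cyclin A and cyclin B activate CDK1 for mitosis. Origins are marked by the origin recognition complex, loaded with the MCM helicase and fired by further kinases and helicase partners, and each chromosome later builds a kinetochore on its centromere that is watched by the spindle checkpoint until the anaphase promoting complex is switched on. In skin, division is a known property of basal epidermal cells and of the growing dermis, while suprabasal epidermal cells leave the cycle. Some of these transcripts come and go with the phases of the cycle. In whole tissue a higher level can mean more cells with the transcript, such as more cells in a phase, or more RNA per cell. These cannot be told apart.

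The libraries held 25268141 to 32247700 counted reads, and 0.349, 0.394 and 0.396% of the reads of replicates 1, 2 and 3 fell on the 80 genes. Levels are given as FPKM, fragments divided by gene length and by library depth, which allows genes to be compared within a library, and values are listed for replicates 1, 2 and 3 in that order or as mean ± SD (n = 3). Most markers of skin were abundant, with 1810.1 ± 131 FPKM for the epidermal gene SFN and 1087 ± 430.0 FPKM for the dermal collagen gene COL1A2. The basal keratinocyte regulator TP63 averaged 52.4 ± 11.0 FPKM. The lowest of 4 basal keratinocyte markers, ITGB4, averaged 10.1 ± 0.752 FPKM. PDGFRA, the lowest of 9 dermal fibroblast markers, averaged 11.6 ± 1.56 FPKM. Markers of other cell types were measured too. Of 5 leukocyte markers, CD74, CD3D and LAPTM5 averaged 8.52 ± 5.17 FPKM, 6.15 ± 0.474 FPKM and 4.13 ± 1.01 FPKM, while PTPRC and SPI1 averaged below 1 FPKM. Of 4 erythroid markers, TFRC, which dividing cells also express, averaged 13.7 ± 0.552 FPKM and SPTB 1.20 ± 0.159 FPKM, while RHAG and EPB42 averaged below 1 FPKM. RHAG had 4, 37 and 6 reads and EPB42 had 2, 35 and 1 reads, so both were highest in replicate 2. SPTB was also highest there, and TFRC was highest in replicate 1. Of 4 skeletal muscle markers, MYOD1 and MYOG had no read in any library, but ACTN2 had 305, 48 and 27 reads and TTN had 577, 30 and 32 reads, so the muscle signal was highest in replicate 1, with summed levels of 2.49, 0.381 and 0.264 FPKM. Dermal fibroblast markers were highest in replicate 2 in 9 of 9 measured genes, with summed levels of 3776, 6603 and 3897 FPKM, and suprabasal keratinocyte markers were lowest there in 7 of 8, with 5214, 4408 and 5021 FPKM.

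Of the 80 genes, 75 had at least 1 FPKM in all 3 libraries, which is 93.8% against 71% of all 14938 genes, and 50 averaged at least 10 FPKM, which is 62.5% against 41.9%. The median over the 80 genes was 12.8 FPKM, against 6.94 FPKM over all genes. The 5 under the minimum were CCNA1, CDK3, CDK15, CDK18 and MCM9. Each of the 75 was tested against the median gene of its own library with limma's moderated test on log2(FPKM + 0.1), with Benjamini-Hochberg adjustment over all 10605 genes kept. There were 36 genes above the median gene, or 48% of those tested against a background of 43.7%, and 28 below it, or 37.3% against 43.6%. The remaining 11 did not pass the test, and the median log2 difference of the 75 was 0.21, against -0.0072 over all genes tested. At this minimum the shares lie close to the background. At other minimums most of them did not, since the median gene depends on which genes are kept. With no minimum, 52 of 80 (65%) were above and 17 (21.2%) below, against 44.9 and 45.2% of all genes. At 0.1 FPKM, 42 of 78 (53.8%) were above and 23 (29.5%) below, against 44 and 43.7%. At 5 FPKM the order turned, with 16 of 60 (26.7%) above and 25 (41.7%) below, against 42.7 and 42.6%. The median gene shifted by -0.94 on the log2 scale with no minimum, by -0.40 at 0.1 FPKM and by 0.60 at 5 FPKM, and genes near it changed sides as listed under the processing. The plot of differences from the median gene shows every tested gene by its role.

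**Figure D1:**
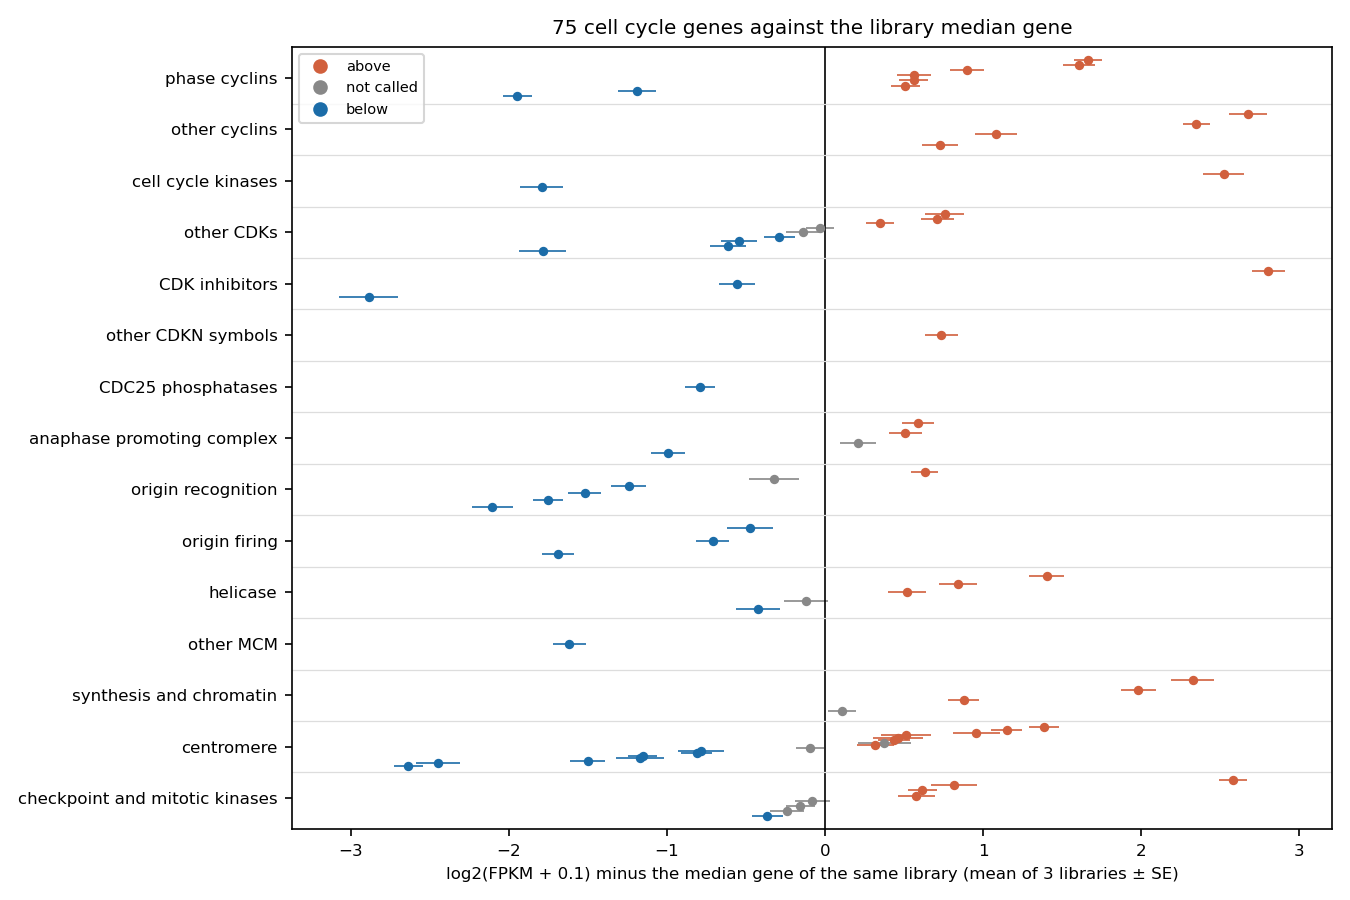
Difference of each of the 75 tested genes from the median gene of its library on the log2(FPKM + 0.1) scale (x axis, mean of 3 libraries with SE), by role (y axis), with colour for the call at an adjusted p of 0.05. CDKN1B, CCNL1, BUB3 and CDK1 lie farthest to the right and CDKN2C, CENPJ and CENPO farthest to the left.

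The G1 cyclins were led by CCND1, whose protein activates CDK4 and CDK6 in response to growth signals. CCND1 had 44.7, 41.5 and 40.5 FPKM or 3.17-fold the level of the median gene (log2 difference 1.67 ± 0.09 SE, adjusted p = 8.3e-06). CCND2, a second D-type cyclin, had 28.3, 24.4 and 21.9 FPKM (log2 difference 0.90 ± 0.11 SE, adjusted p = 3.0e-04). CCND3 was the lowest of the family at 6.73, 5.95 and 4.76 FPKM and lay below the median gene (log2 difference -1.19 ± 0.12 SE, adjusted p = 1.5e-04). The order CCND1, CCND2, CCND3 held in 3 of 3 libraries with no overlap of ranges, and CCND1 exceeded CCND2 by 1.58, 1.70 and 1.85 times and CCND3 by 6.64, 6.98 and 8.51 times in FPKM. Their kinase partner CDK6 had 4.75, 3.61 and 3.07 FPKM, below the median gene (log2 difference -1.79 ± 0.14 SE, adjusted p = 3.5e-05). All 3 cyclins and CDK6 were highest in replicate 1 and lowest in replicate 3.

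The inhibitors of these kinases differed more in level than the tested genes of any other role with 3 or more of them. CDKN1B encodes p27, which holds cyclin E and cyclin A complexes in check. It had the highest mean of all 80 genes, with 106, 90.3 and 84.1 FPKM (log2 difference 2.80 ± 0.10 SE, adjusted p = 2.2e-06). It was not the highest in every library, since CCNL1 had 93.3 and 93.6 FPKM in replicates 2 and 3 and CDK1 had 90.8 FPKM in replicate 2. The level of CDKN1B per length rests on 2638, 2201 and 1700 reads over an implied gene length of 789 bases. CDKN1A, the p53 target that encodes p21, had 9.23, 7.53 and 10.4 FPKM and lay below the median gene (log2 difference -0.56 ± 0.11 SE, adjusted p = 0.0038). CDKN1B exceeded CDKN1A 11.49-, 11.99- and 8.11-fold in FPKM. CDKN2C, an inhibitor specific to CDK4 and CDK6, had 1.44, 1.32 and 2.57 FPKM from 20, 18 and 29 reads, an implied length of 440 bases and the largest SD of log2 values of any tested cell cycle gene, 0.49. Replicate 3 was the high library for CDKN2C, and the other libraries differed little (log2 difference -2.89 ± 0.18 SE, adjusted p = 1.7e-05). CDKN2AIP shares the symbol stem but encodes a binding partner of the ARF protein in mammals. It had 20.01, 24.7 and 21.9 FPKM (log2 difference 0.74 ± 0.10 SE, adjusted p = 6.2e-04).

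Of the S phase and mitotic cyclins, 4 of 6 were above the median gene, CCNE2 was below it and CCNA1 was not tested. The background above the median gene was 43.7%, over tested genes only. CCNE1, which activates CDK2 at the start of S phase, had 18.1, 18.1 and 20.5 FPKM (log2 difference 0.51 ± 0.09 SE, adjusted p = 0.0022), and its paralog CCNE2 had 3.56, 3.06 and 3.49 FPKM (log2 difference -1.94 ± 0.09 SE, adjusted p = 5.2e-06). CCNE1 exceeded CCNE2 5.10-, 5.90- and 5.89-fold in FPKM, with ranges apart. CCNA2, the cyclin of S phase and G2, had 18.5, 20.7 and 19.6 FPKM (log2 difference 0.56 ± 0.09 SE, adjusted p = 0.0014). CCNA1, largely confined to the germ line in mammals, had 2, 11 and 1 reads and 0.0374, 0.210 and 0.0230 FPKM, and was under the minimum in every library. The mitotic cyclin CCNB2 had 36.6, 39.9 and 45.7 FPKM (log2 difference 1.61 ± 0.10 SE, adjusted p = 1.6e-05) and CCNB3 had 17.7, 22.5 and 18.9 FPKM (log2 difference 0.57 ± 0.11 SE, adjusted p = 0.0028). CCNB2 exceeded CCNB3 by 2.07, 1.77 and 2.41 times in FPKM, and the ranges of CCNB3, CCNA2 and CCNE1 overlapped so that no order among these 3 holds. Among the 9 cyclins of the cycle, CCND1 and CCNB2 were the highest, and their ranges overlapped too.

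CDK1, the kinase that drives entry into mitosis, had 62.4, 90.8 and 79.0 FPKM or 5.75-fold the level of the median gene (log2 difference 2.52 ± 0.13 SE, adjusted p = 6.7e-06). It was lowest in replicate 1 and highest in replicate 2. CDK1 exceeded CDK6 13.1-, 25.2- and 25.7-fold in FPKM, the ratio being lowest in replicate 1, where CDK1 was lowest and CDK6 highest. Its activating phosphatase CDC25A had 6.87, 8.07 and 7.96 FPKM, below the median gene (log2 difference -0.79 ± 0.10 SE, adjusted p = 3.5e-04).

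**Figure D2:**
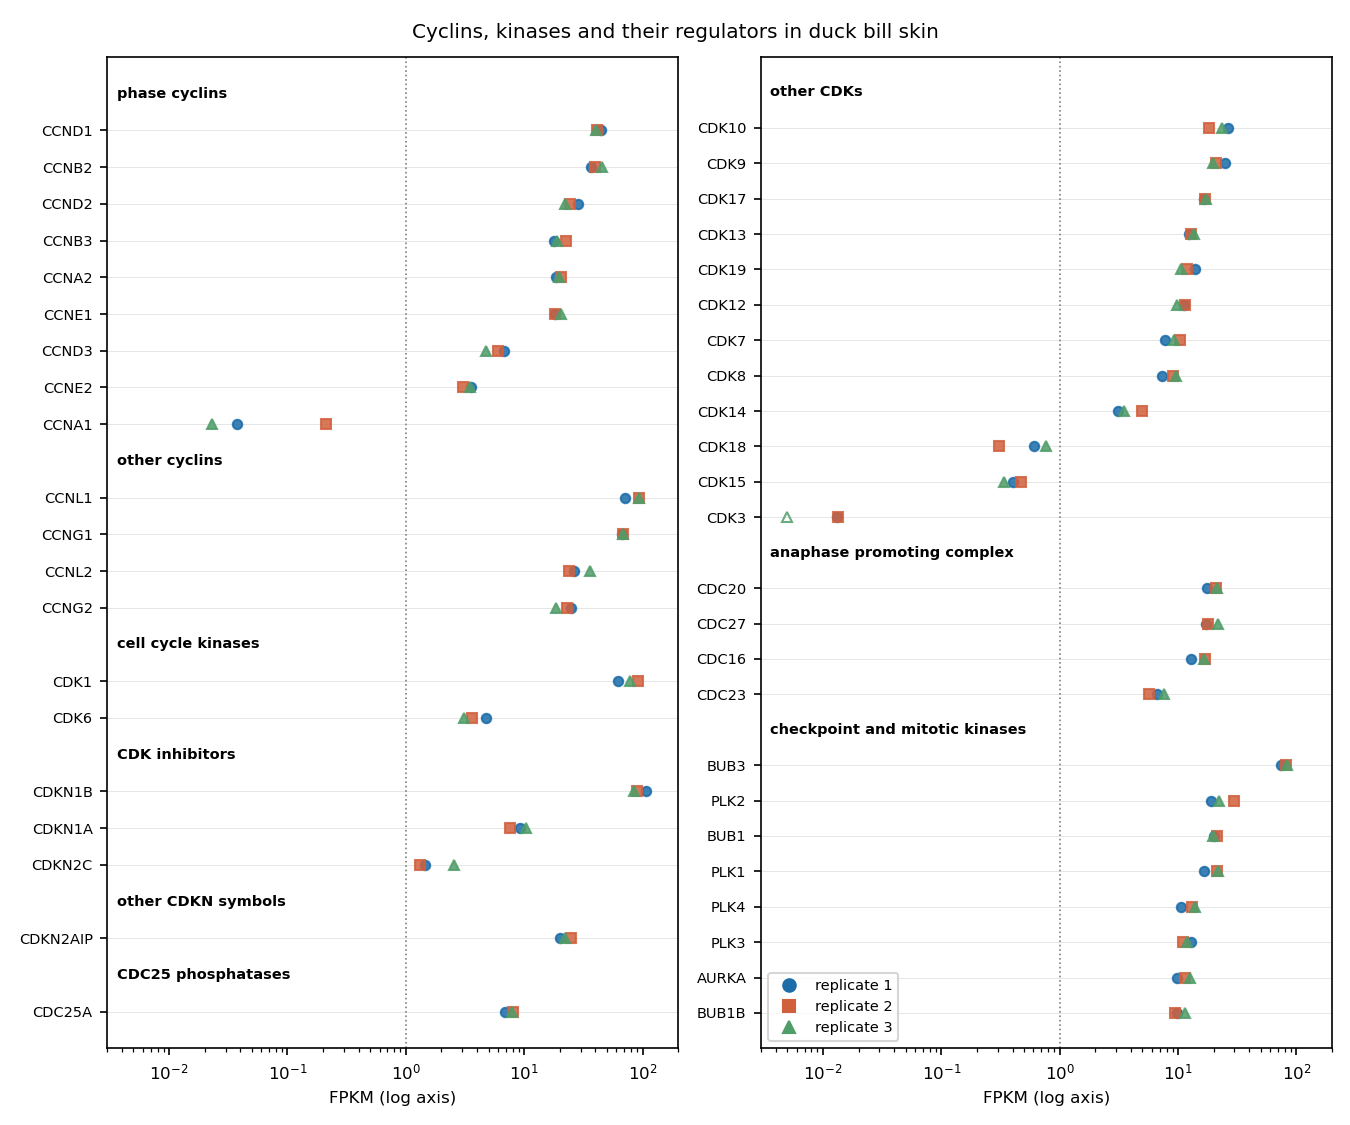
FPKM on a log axis of cyclins, kinases, inhibitors, anaphase promoting complex and checkpoint genes in each library, ordered by mean inside each role, with a dotted line at the minimum of 1 FPKM and an open symbol for 0 FPKM. CDKN1B, CCNL1, BUB3 and CDK1 lie farthest to the right, and CCNA1, CDK18, CDK15 and CDK3 lie left of the line.

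Genes that mark origins were mostly low, while the loaded helicase was higher. Of the 6 subunits of the origin recognition complex, ORC6 alone was above the median gene, ORC4 did not pass the test and 4 were below. The shares were 16.7% above and 66.7% below, against 43.7 and 43.6% of all genes. ORC6 had 20.6, 19.98 and 21.0 FPKM (log2 difference 0.63 ± 0.09 SE, adjusted p = 6.0e-04), nearly the same level in each library. ORC4 had 12.8, 7.63 and 12.05 FPKM, low in replicate 2, with an SD of log2 values of 0.40 (log2 difference -0.32 ± 0.16 SE, adjusted p = 0.097). ORC2 had 5.52, 4.73 and 6.50 FPKM (log2 difference -1.24 ± 0.11 SE, adjusted p = 7.9e-05). ORC3 and ORC5 averaged 4.57 ± 0.582 FPKM and 3.87 ± 0.380 FPKM, and ORC1, the subunit whose level varies with the cycle in mammals, was the lowest at 3.04 ± 0.592 FPKM. ORC6 exceeded ORC1 8.46-, 6.52- and 5.81-fold in FPKM. The ranges of ORC2, ORC3, ORC5 and ORC1 overlapped between neighbours, although each neighbour was higher in 3 of 3 libraries.

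The MCM helicase unwinds DNA at the fork as a ring of different subunits, of which MCM2 to MCM6 were measured. MCM4 was the highest at 30.2, 39.7 and 36.3 FPKM (log2 difference 1.40 ± 0.11 SE, adjusted p = 4.5e-05), followed by MCM6 at 19.8, 27.2 and 25.2 FPKM (log2 difference 0.84 ± 0.12 SE, adjusted p = 7.1e-04). MCM5 had 16.3, 22.7 and 18.5 FPKM (log2 difference 0.52 ± 0.12 SE, adjusted p = 0.0068). MCM2 had 10.2, 15.4 and 11.4 FPKM and did not pass the test (log2 difference -0.12 ± 0.14 SE, adjusted p = 0.45). MCM3 was the lowest at 8.09, 12.4 and 9.49 FPKM (log2 difference -0.42 ± 0.14 SE, adjusted p = 0.028), a call lost without replicate 1 (adjusted p = 0.17) or replicate 3 (adjusted p = 0.11). The order MCM4, MCM6, MCM5, MCM2, MCM3 was the same in 3 of 3 libraries, and the ratio of MCM4 to MCM3 was 3.73, 3.19 and 3.82 in FPKM. All 5 subunits were lowest in replicate 1 and highest in replicate 2, and their summed level was 84.6, 117 and 101 FPKM. MCM8 and MCM9, which act in recombination repair and not in the ring, had 4.20, 3.75 and 4.86 FPKM and 0.762, 0.531 and 0.903 FPKM.

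All 3 origin firing genes tested were below the median gene, against 43.6% of all genes. CDC7, a kinase that switches on the loaded helicase, had 8.42, 8.04 and 12.7 FPKM and was highest in replicate 3 (log2 difference -0.47 ± 0.15 SE, adjusted p = 0.022). Its call was lost without replicate 1 (adjusted p = 0.13) or replicate 2 (adjusted p = 0.09). CDC45, which joins the active helicase, had 7.06, 8.86 and 8.37 FPKM (log2 difference -0.71 ± 0.10 SE, adjusted p = 8.5e-04), and MCM10, needed for its activation, had 3.82, 4.56 and 3.79 FPKM (log2 difference -1.69 ± 0.10 SE, adjusted p = 1.3e-05).

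Of the 4 genes of DNA synthesis and chromatin, 3 were above the median gene, or 75% against 43.7% of all genes. PCNA and RRM2 had the highest means of all replication genes among the 80. PCNA, the sliding clamp of the DNA polymerases, had 53.0, 81.0 and 69.1 FPKM (log2 difference 2.32 ± 0.14 SE, adjusted p = 1.2e-05). RRM2, the small subunit of the ribonucleotide reductase that supplies deoxynucleotides, had 44.9, 57.8 and 56.1 FPKM (log2 difference 1.98 ± 0.11 SE, adjusted p = 9.7e-06), and the large subunit gene RRM1 had 22.2, 24.97 and 26.2 FPKM (log2 difference 0.88 ± 0.10 SE, adjusted p = 2.0e-04). RRM2 exceeded RRM1 by 2.02, 2.32 and 2.14 times in FPKM. TOP2A, which untangles sister chromatids, had 14.1, 14.3 and 14.4 FPKM and did not pass the test (log2 difference 0.11 ± 0.09 SE, adjusted p = 0.28). TOP2A varied by no more than 1.02 times between libraries while PCNA varied 1.53-fold, so their ratio was 3.75, 5.66 and 4.81 in FPKM. All 4 genes were lowest in replicate 1.

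**Figure D3:**
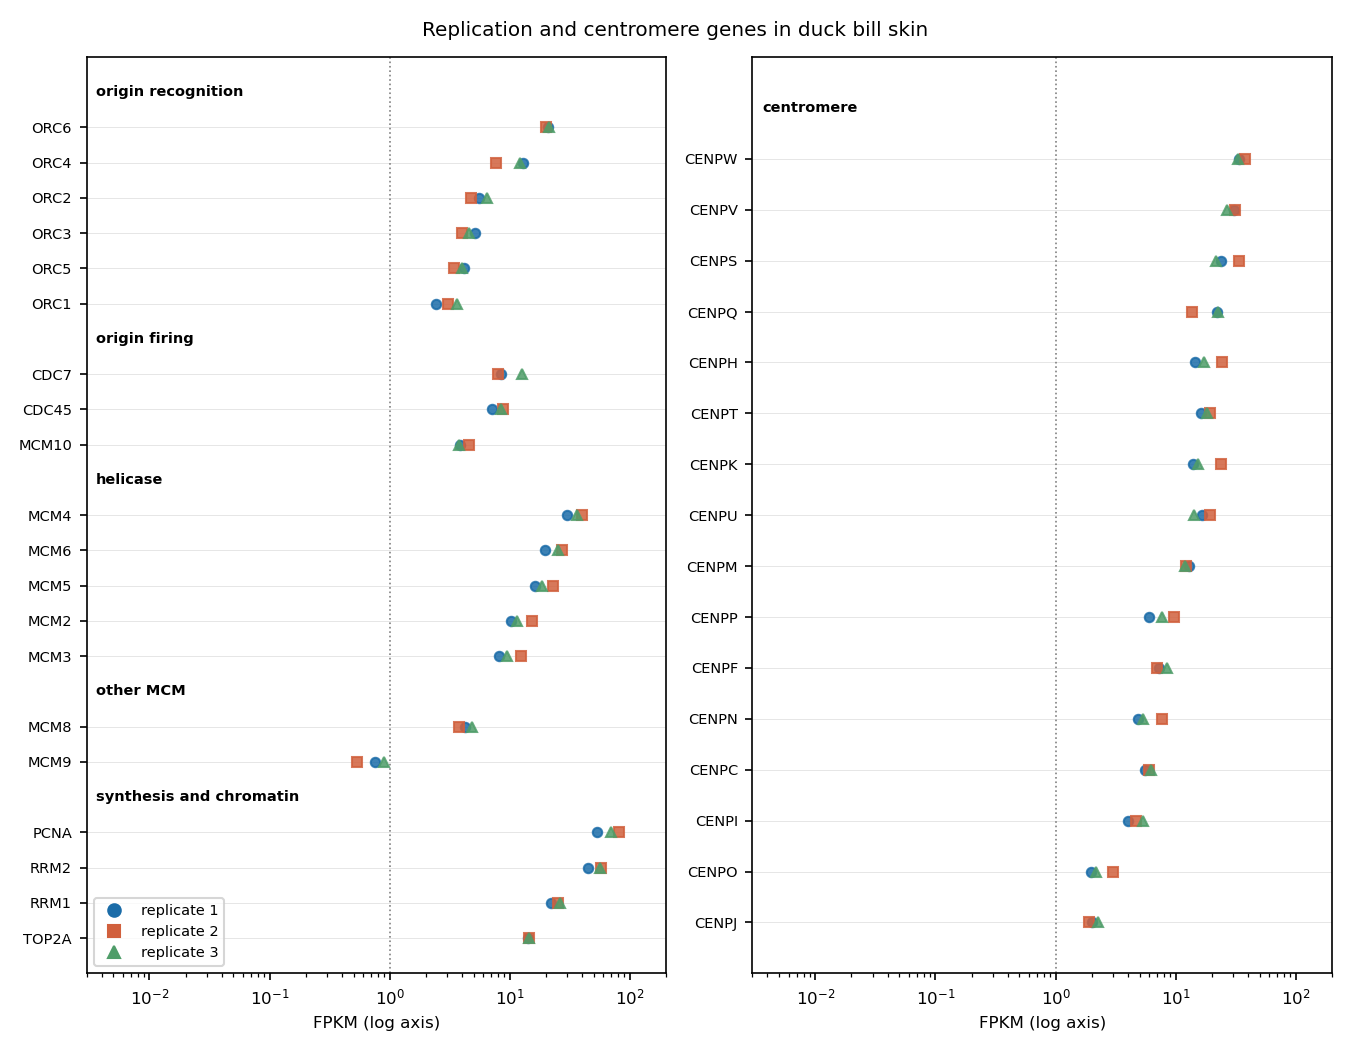
FPKM on a log axis of replication genes (left) and CENP genes (right) in each library, ordered by mean inside each role, with a dotted line at the minimum of 1 FPKM. In each of the 5 helicase subunits replicate 1 lies to the left and replicate 2 to the right, and the CENP genes reach from CENPW at about 35 FPKM down to CENPJ at about 2 FPKM.

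Of the 16 CENP genes, 7 were above the median gene, 7 below it and 2 did not pass the test. Both shares, 43.8%, equal the background of 43.7 and 43.6% of all genes closely. CENPW, a histone-fold protein of the inner kinetochore, was the highest at 33.7, 37.6 and 33.0 FPKM (log2 difference 1.38 ± 0.09 SE, adjusted p = 2.2e-05). Its partner CENPT, which links the centromere to the microtubule-binding layer, had 16.1, 19.5 and 18.4 FPKM (log2 difference 0.44 ± 0.10 SE, adjusted p = 0.0063). CENPV had 30.4, 31.3 and 26.9 FPKM (log2 difference 1.15 ± 0.10 SE, adjusted p = 5.6e-05) and CENPS, another histone-fold protein, had 23.6, 33.7 and 21.6 FPKM (log2 difference 0.96 ± 0.15 SE, adjusted p = 0.001). CENPU, CENPQ, CENPP and CENPO encode parts of a single subcomplex, yet averaged 16.7 ± 2.502 FPKM, 19.4 ± 4.97 FPKM, 7.79 ± 1.85 FPKM and 2.38 ± 0.571 FPKM. The centromere anchor CENPC averaged 5.90 ± 0.328 FPKM (log2 difference -1.15 ± 0.09 SE, adjusted p = 4.2e-05), and CENPN, which reads the centromeric nucleosome, averaged 5.95 ± 1.54 FPKM (log2 difference -1.17 ± 0.15 SE, adjusted p = 4.4e-04). CENPF, a large kinetochore protein of G2 and mitosis, averaged 7.52 ± 0.753 FPKM (log2 difference -0.81 ± 0.10 SE, adjusted p = 3.0e-04). CENPJ, despite its symbol a builder of centrioles, was the lowest at 2.05 ± 0.177 FPKM (log2 difference -2.63 ± 0.09 SE, adjusted p = 2.0e-06).

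CENPH and CENPK, which bind each other in the inner kinetochore, were close in level and in pattern. CENPH had 14.5, 24.4 and 17.2 FPKM (log2 difference 0.46 ± 0.16 SE, adjusted p = 0.033) and CENPK had 13.8, 23.8 and 15.5 FPKM (log2 difference 0.38 ± 0.17 SE, adjusted p = 0.075), both clearly highest in replicate 2. Their ratio was 1.04, 1.03 and 1.12 in FPKM, and their SD of log2 values, 0.38 and 0.41, were among the 5 largest of the tested cell cycle genes. CENPI, their complex partner, averaged 4.65 ± 0.667 FPKM (log2 difference -1.50 ± 0.11 SE, adjusted p = 3.1e-05), and CENPM, the last of that complex, averaged 12.4 ± 0.454 FPKM and did not pass the test. CENPQ had the opposite pattern, with 22.2, 13.7 and 22.3 FPKM and an SD of 0.40, lowest in replicate 2. Several of these calls were lost or gained when a library was left out. CENPQ lost its call without replicate 1 (adjusted p = 0.11) or 3 (0.086), CENPH without replicate 2 (0.085) or 3 (0.055) and CENPU without replicate 1 (0.10) or 2 (0.12), while CENPK was above the median gene without replicate 1 (log2 difference 0.55, adjusted p = 0.046).

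The spindle checkpoint was led by BUB3, an adaptor that brings the BUB kinases to kinetochores, at 74.7, 81.8 and 82.7 FPKM (log2 difference 2.58 ± 0.09 SE, adjusted p = 1.9e-06). BUB1, a checkpoint kinase, had 20.1, 21.3 and 19.6 FPKM (log2 difference 0.62 ± 0.09 SE, adjusted p = 7.9e-04) and varied little between libraries. BUB1B, which encodes the inhibitor BubR1, averaged 10.3 ± 1.10 FPKM and lay below the median gene (log2 difference -0.36 ± 0.10 SE, adjusted p = 0.013), but not without replicate 1 (adjusted p = 0.083) or 2 (0.054). BUB3 exceeded BUB1 3.71-, 3.85- and 4.21-fold in FPKM. Among the polo-like kinases, PLK2, a stress and growth response gene, had 19.1, 29.9 and 22.3 FPKM (log2 difference 0.82 ± 0.14 SE, adjusted p = 0.0019) and PLK1, the main mitotic member, averaged 19.97 ± 2.96 FPKM (log2 difference 0.58 ± 0.12 SE, adjusted p = 0.0035). PLK4, which starts centriole duplication, averaged 12.6 ± 1.75 FPKM and PLK3 averaged 11.9 ± 0.947 FPKM, neither passing the test. AURKA, the kinase of spindle poles, averaged 11.2 ± 1.44 FPKM and did not pass it either (log2 difference -0.24 ± 0.11 SE, adjusted p = 0.073).

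The anaphase promoting complex ends mitosis by marking cyclin B and securin for destruction. Its activator CDC20 had 17.7, 20.9 and 21.6 FPKM (log2 difference 0.59 ± 0.10 SE, adjusted p = 0.0017). The core subunit genes were unequal, with CDC27 at 17.3, 17.8 and 21.8 FPKM (log2 difference 0.51 ± 0.10 SE, adjusted p = 0.0038), CDC16 at 12.9, 16.9 and 16.5 FPKM (log2 difference 0.21 ± 0.11 SE, adjusted p = 0.13) and CDC23 at 6.65 ± 0.988 FPKM (log2 difference -0.99 ± 0.11 SE, adjusted p = 2.1e-04). CDC16 was above the median gene without replicate 1 (log2 difference 0.36, adjusted p = 0.042).

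The remaining cyclins and CDKs act mostly outside the division cycle. All 4 other cyclins were above the median gene, against 43.7% of all genes. CCNL1, a cyclin linked to RNA splicing, had 70.7, 93.3 and 93.6 FPKM (log2 difference 2.68 ± 0.12 SE, adjusted p = 3.9e-06), and its paralog CCNL2 had 26.3, 23.7 and 35.7 FPKM (log2 difference 1.08 ± 0.13 SE, adjusted p = 3.3e-04). CCNG1, a p53 target, had 67.1, 68.2 and 68.2 FPKM, the smallest relative range of the tested cell cycle genes together with TOP2A (log2 difference 2.35 ± 0.09 SE, adjusted p = 2.2e-06). CCNG2, found in mammalian cells that leave the cycle, averaged 22.2 ± 3.25 FPKM (log2 difference 0.73 ± 0.11 SE, adjusted p = 0.0011). Of the 12 other CDK genes, 3 were above the median gene, 4 below, 2 not apart and 3 under the minimum. Among the 9 tested, 33.3% were above and 44.4% below, against 43.7 and 43.6% of all genes. The highest were CDK10 at 26.6, 18.2 and 23.4 FPKM (log2 difference 0.76 ± 0.12 SE, adjusted p = 0.0014), the transcription elongation kinase CDK9 at 24.9, 20.7 and 19.9 FPKM (log2 difference 0.71 ± 0.10 SE, adjusted p = 7.8e-04) and CDK17 at 16.5, 16.8 and 17.3 FPKM (log2 difference 0.35 ± 0.09 SE, adjusted p = 0.0092).

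The other kinases of the transcription machinery lay near or below the median gene. CDK13 and CDK12, which act on elongating polymerase, averaged 12.97 ± 0.622 FPKM and 10.8 ± 0.874 FPKM, and the Mediator kinases CDK19 and CDK8 averaged 12.1 ± 1.64 FPKM and 8.68 ± 1.26 FPKM. CDK13 and CDK19 did not pass the test, and CDK8 was below the median gene (log2 difference -0.61 ± 0.11 SE, adjusted p = 0.0025). The ratio of CDK8 to CDK19 was 0.525, 0.767 and 0.914 in FPKM, so the pair was closest in replicate 3. CDK7, which is part of TFIIH and also activates other CDKs, averaged 9.12 ± 1.31 FPKM (log2 difference -0.54 ± 0.11 SE, adjusted p = 0.0044). CDK12 lay below the median gene (log2 difference -0.29 ± 0.10 SE, adjusted p = 0.03) but not without replicate 1 (adjusted p = 0.097) or 3 (0.21). CDK14, a partner of membrane-bound cyclin Y, averaged 3.84 ± 0.968 FPKM (log2 difference -1.79 ± 0.15 SE, adjusted p = 5.3e-05). Under the minimum were CDK18 at 0.560 ± 0.231 FPKM, CDK15 at 0.403 ± 0.0667 FPKM and CDK3, with 1, 1 and 0 reads.

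Division genes outside these families also lay on both sides of the median gene. Of 139 such genes listed in 6 groups, 120 were measured and 119 tested, of which 51 (42.9%) were above the median gene and 44 (37%) below, against 43.7 and 43.6% of all genes. This too depended on the minimum, since 85 of 120 (70.8%) were above and 21 (17.5%) below with no minimum, against 44.9 and 45.2% of all genes. Regulators of the E2F and retinoblastoma system, which switch division genes on and off, were mostly low, with 1 of 17 above and 13 (76.5%) below. TFDP1, the dimer partner of E2F proteins, was the gene above at 36.6 ± 2.93 FPKM, while E2F6 and RBL2 were the next at 12.2 ± 1.81 FPKM and 11.9 ± 0.624 FPKM and did not pass the test. Among 33 replication fork genes, 17 were above and 8 below, with the single-strand binding protein genes RPA2 at 105 ± 14.5 FPKM and RPA3 at 51.9 ± 9.65 FPKM among the highest. Among 28 spindle and cytokinesis genes tested, 11 were above and 10 below, with DSN1 at 68.1 ± 11.995 FPKM, the securin gene PTTG1 at 47.4 ± 4.82 FPKM and CKAP2 at 34.1 ± 3.36 FPKM the highest. Of 15 chromosome structure genes, 8 were above and 4 below, led by H2AZ1 at 145 ± 15.5 FPKM, HMGB2 at 119 ± 3.63 FPKM and the cohesin gene RAD21 at 58.6 ± 0.449 FPKM. Of 15 degradation genes, 6 were above and 7 below, with the ubiquitin ligase subunit SKP1 at 482 ± 22.1 FPKM, ANAPC13 at 64.8 ± 4.53 FPKM and CUL1 at 43.5 ± 4.69 FPKM. Of 11 checkpoint and arrest genes, 8 were above and 2 below, led by the antiproliferative genes BTG1 at 704 ± 73.2 FPKM and BTG2 at 78.0 ± 19.4 FPKM and by GADD45B at 69.9 ± 17.5 FPKM.

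The cell cycle genes tended to be low in replicate 1. Of the 75 tested, 40 were lowest there, 19 in replicate 2 and 16 in replicate 3, or 53.3, 25.3 and 21.3% against 32.3, 36.6 and 31% of all 10605 genes. They were highest in replicate 1 in 15, in replicate 2 in 31 and in replicate 3 in 29. These are 20, 41.3 and 38.7%, against 33.1, 34 and 32.9% of all genes. Measured from each gene's mean over the libraries on the log2 scale, their median stood at -0.09, 0.04 and 0.05, against 0.0026, -0.0065 and 0.0013 for all genes tested. The median SD of log2 values between libraries was 0.19 for the cell cycle genes and 0.17 over all genes. Without replicate 1 the cell cycle genes were not above all genes in this SD, at 0.139 against 0.142. The biological coefficient of variation estimated by edgeR from the counts had a median of 15.8% for the cell cycle genes and 15.7% over all genes. No test was made between libraries, since they are replicates of 1 group. Of the 119 other division genes tested, 72 (60.5%) were lowest in replicate 1. These were 23 of 33 replication fork genes, 21 of 28 spindle and cytokinesis genes, 12 of 15 chromosome structure genes and 10 of 17 E2F and retinoblastoma regulators, but 4 of 15 degradation genes and 2 of 11 checkpoint and arrest genes. ACTN2 and TTN, the skeletal muscle markers with reads, were highest in replicate 1. Of 5 endothelial markers, 3 were highest in replicate 1 and 2 in replicate 2, with summed levels of 94.9, 81.5 and 77.9 FPKM. The part of either marker list in this pattern was not tested.

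**Figure D4:**
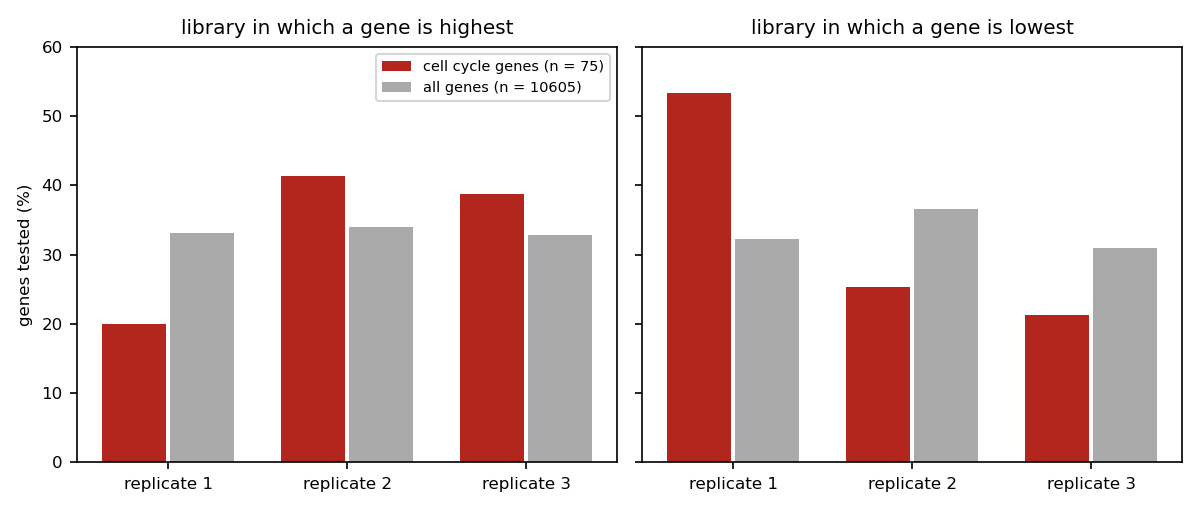
Percentage of the 75 tested cell cycle genes and of all 10605 genes that were highest (left) or lowest (right) in each library. The cell cycle bar reaches 53.3% for genes lowest in replicate 1, against 32.3% of all genes.

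The genes did not follow a single pattern. In 24 genes, 32% against 17.9% of all genes, replicate 1 was lowest and replicate 2 highest, and these held all 5 helicase subunits and 6 of 16 CENP genes. PCNA, RRM2, CDC45, CDK1, CCNA2 and CCNB3 were also among them. In 16 genes, 21.3% against 14.5%, replicate 1 was lowest and replicate 3 highest, and these were of many roles: AURKA, BUB3, CCNB2, CCNL1, CDC20, CDC27, CDK13, CDK17, CDK8, CENPC, CENPI, ORC1, PLK1, PLK4, RRM1 and TOP2A. Replicate 1 was highest and replicate 3 lowest in 9 genes, 12% against 14.9%, namely CCND1, CCND2, CCND3, CCNG2, CDK6, CDK9, CDK19, CDKN1B and CENPM. Other regulators of G1 had other orders, with CCNE1, CDKN1A and CDKN2C highest in replicate 3 and lowest in replicate 2 and CCNE2 highest in replicate 1 and lowest in replicate 2. Subunits of the origin recognition complex were lowest in replicate 2 in 5 of 6, or 83.3% against 36.6% of all genes. Dermal fibroblast markers shared the high replicate 2 of the helicase, with median deviations of -0.27, 0.48 and -0.23, while the helicase had -0.25, 0.25 and -0.04 and suprabasal keratinocyte markers had 0.12, -0.17 and 0.04. Basal keratinocyte markers were lowest in replicate 2 in 4 of 4 genes, with median deviations of 0.07, -0.16 and 0.07. The 3 tested markers of feather or follicle-like appendages were lowest there too, with 0.20, -0.36 and 0.13. SHH, also on that list, was under the minimum with 7, 18 and 6 reads and was highest in replicate 2. Schwann cell markers were highest in replicate 2 in 4 of 5 genes, with sums of 421, 802 and 454 FPKM. The 5 leukocyte markers summed to 14.8, 27.6 and 17.7 FPKM. Among them CD74 had 5.40, 14.5 and 5.67 FPKM, while CD3D had 5.60, 6.49 and 6.34 FPKM. The leukocyte markers were lowest in replicate 1 in 3 of 3 tested genes and in SPI1, but PTPRC was lowest in replicate 3. LAPTM5 was highest in replicate 3 and the others in replicate 2. The erythroid markers RHAG and EPB42, low on average, were highest in replicate 2 as well, as was SPTB. TFRC was highest in replicate 1, and the 4 erythroid markers summed to 15.6, 15.9 and 14.4 FPKM. The part of tissue composition in these patterns was not tested.

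**Figure D5:**
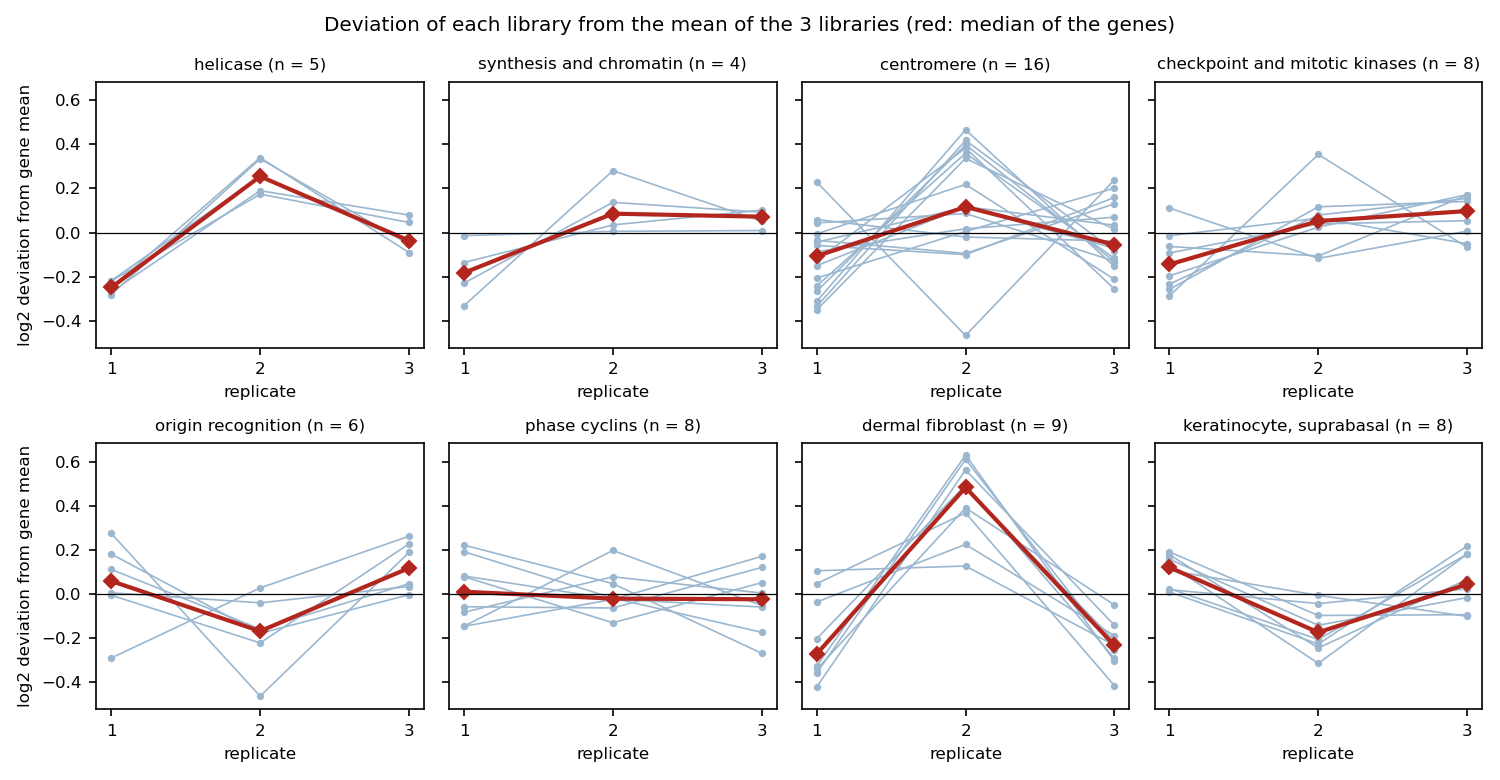
Deviation of each library from the mean of the 3 libraries on the log2(FPKM + 0.1) scale (y axis) for each gene (thin lines, drawn only to join the points of a gene) and their median (red), in 6 cell cycle roles and 2 marker lists of skin cells. The helicase subunits run together, the CENP genes split, and the fibroblast markers peak in replicate 2.

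Position added a further pattern. In the RefSeq gene table of the IASCAAS_PekinDuck_T2T assembly, CENPH, CENPK, CDK7 and PLK2 lie on the Z chromosome, and CENPH and CDK7 are neighbours with no protein-coding gene between them. All 4 were highest in replicate 2, with median deviations of -0.30, 0.39 and -0.07. Of the other 436 tested genes on Z, 290 (66.5%) were highest in replicate 2, with median deviations of -0.10, 0.18 and -0.09, against 32.9% of 9022 genes on other chromosomes. In birds males carry a pair of Z chromosomes and females a single copy, and the sex of the embryos is not given in the labels. Among the 70 tested cell cycle genes on other chromosomes, 27 (38.6%) were highest in replicate 2, and none of the helicase subunits is on Z. The part of Z linkage in the pattern of CENPH and CENPK was not tested.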

How the data were processed

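Poly(A) RNA of bill skin was made into strand-specific libraries, per the labels' protocols. The deposited table holds raw counts per gene and FPKM, per its file headers. CASAVA 1.8.2, Trimmomatic 0.36, STAR 2.5.4b, edgeR 3.22.3, Subread 1.6.2 and its featureCounts are listed, with no role, in the submitters' processing notes. The genome build was not given in the sources used here, nor was an annotation, and coordinates are left out.

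With edgeR's TMM factors (0.978, 1.008 and 1.014), counts and FPKM implied a whole-number gene length within 0.01 bases for 100% of 13506 genes with reads in all libraries, and without them for 0%. FPKM thus carry TMM scaling and depend on these lengths, 440 to 9202 bases for the cell cycle genes. Near-identical paralogs may share reads.

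All genes reaching 1 FPKM in every library entered limma 3.58.1 (R 4.3.3) as log2(FPKM + 0.1) minus the library median, two-sided, with Benjamini-Hochberg adjustment over all 10605 genes and a threshold of 0.05. edgeR 4.0.16 and DESeq2 1.42.0 gave other scalings. The added 0.1 makes folds of low genes too small. Other pseudocounts, minimums, prior variances, reference levels and scalings were tried, and each replicate was left out in turn. The test was checked on counts simulated with the implied lengths and the edgeR variation of these data. That check does not cover errors in the lengths or the choice of minimum. Of 3347 identifiers without a symbol, 730 took a symbol from RefSeq, and 79 of the 80 cell cycle genes were found there.

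The genes and lists were chosen with earlier results of these data known. Values in every library are printed for the 3 highest genes of each role, the cyclins, kinases, inhibitors and helicase subunits of the cycle, and the 5 with the largest SD. Of each list of other division genes the 3 highest are named, except for a result that is not reported here. Pairs for ratios and the Z chromosome comparison were chosen after values were seen. Figures were drawn with matplotlib 3.10.9.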

Additional observations from a re-analysis of the deposited data

How the results depend on the processing

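A pseudocount of 1 FPKM and a prior variance with a trend left all 75 calls as they were. The median gene moved with the minimum, and by that construction the counts of cell cycle genes above and below it were 42 and 23 of 78 at 0.1 FPKM (44 and 43.7% of all genes), 52 and 17 of 80 with no minimum (44.9 and 45.2% of all genes), and 16 and 25 of 60 at 5 FPKM (42.7 and 42.6% of all genes), while those of the other division genes were 85 and 21 of 120 with no minimum and 31 and 48 of 97 at 5 FPKM. Closeness of both shares to the background therefore holds for the cell cycle genes at the minimum of 1 FPKM and not at the others. Leaving out each replicate gave 34 to 36 above and 24 to 26 below. With no minimum, the log2 difference from the median gene turned positive for AURKA (0.70), BUB1B (0.58), CDC25A (0.15), CDC45 (0.23), CDC7 (0.47), CDK12 (0.65), CDK13 (0.91), CDK19 (0.80), CDK7 (0.40), CDK8 (0.33), CDKN1A (0.38), CENPF (0.13), CENPM (0.85), CENPP (0.16), MCM2 (0.82), MCM3 (0.52), ORC4 (0.62), PLK3 (0.79) and PLK4 (0.86). At a minimum of 0.1 FPKM, the log2 difference from the median gene turned positive for AURKA (0.15), BUB1B (0.031), CDK12 (0.11), CDK13 (0.37), CDK19 (0.26), CENPM (0.30), MCM2 (0.28), ORC4 (0.073), PLK3 (0.24) and PLK4 (0.32). At a minimum of 5 FPKM, the log2 difference from the median gene turned negative for CCNA2 (-0.041), CCNB3 (-0.036), CCNE1 (-0.092), CDC16 (-0.39), CDC20 (-0.011), CDC27 (-0.093), CDK17 (-0.25), CENPH (-0.14), CENPK (-0.23), CENPQ (-0.089), CENPT (-0.17), CENPU (-0.28), MCM5 (-0.081), PLK1 (-0.023) and TOP2A (-0.49). With the mean of the genes kept as reference in place of the median gene, the log2 difference turned negative for TOP2A (-0.0038). Leaving out each replicate moved the difference of CDK13 between -0.043 and 0.024, that of MCM2 between -0.28 and 0.030 and that of PLK4 between -0.13 and 0.061, with none past the test. The median SD between libraries of the cell cycle genes was 0.18 with a pseudocount of 1 and 0.14 to 0.17 without 1 replicate. Over all genes tested it was 0.12 to 0.15 without 1 replicate. The median deviations of the cell cycle genes kept their signs under library totals, DESeq2 size factors and TMM factors. Library totals turned the small median of the cyclins of the cycle in replicate 1 to -0.021, against 0.011. No paired analysis was possible because there is 1 group. Of the 75 tested genes, 28 kept direction and call under every alternative in which they were tested, and the 18 to 29 reads of CDKN2C leave its level imprecise.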

Other observations

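Among the division genes outside the named families, BIRC5, which encodes the chromosomal passenger protein survivin, had 3, 1 and 3 reads and 0.0671, 0.0228 and 0.0826 FPKM, whereas its partners CDCA8 and INCENP averaged 17.5 ± 1.31 FPKM and 12.2 ± 1.496 FPKM. The implied gene length of the BIRC5 row was 1417 bases. The annotation behind the counts was not given, and whether the BIRC5 row covers the whole gene was not tested. The other spindle genes measured averaged at least 3.52 ± 0.417 FPKM, the level of the kinesin gene KIF18A. A row without a symbol in the table matched CENPL, a centromere gene that binds CENPN, through its gene number. It had 4.30, 4.13 and 6.25 FPKM from 199, 187 and 235 reads, close to the 5.95 ± 1.54 FPKM of CENPN.

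WEE1, the kinase that holds CDK1 inactive, had 10.6, 12.4 and 12.8 FPKM and did not pass the test. The DNA damage checkpoint kinase genes CHEK1 and CHEK2 had 20.5, 18.6 and 19.8 FPKM and 18.6, 17.0 and 19.2 FPKM, both above the median gene (adjusted p = 0.0011 and 0.0031, limma). The upstream kinase genes ATM and ATR averaged 5.69 ± 1.07 FPKM and 3.57 ± 0.565 FPKM, both below the median gene (adjusted p = 1.3e-04 and 1.3e-05, limma). BTG1, at 789, 664 and 660.4 FPKM, was above every cell cycle gene in each library.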
